A study of Sus scrofa with 12 samples.

Results

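The FOXO axis of muscle wasting was followed through 9 genes in the longissimus dorsi, a back muscle, of Laiwu and Yorkshire pigs. The genes were picked by name: the ubiquitin ligases FBXO32 and TRIM63, the transcription factors FOXO1, FOXO3 and FOXO4, the growth restrainers DDIT4 and SESN1, the stress gene GADD45A and the ligase NEDD4. All 9 were found among the 23271 genes of the deposited table, and all 9 passed the low-value filter, a mean of at least 0.5 FPKM, that left 11205 genes for testing. FPKM scales the reads of a gene to its length and to the depth of the library. Laiwu pigs are a Chinese breed known for fat-rich muscle, and Yorkshire pigs a lean Western one. Each breed gave 6 libraries of poly(A) RNA, from pigs the study matched for weight. The labels give breed and tissue, with no treatment, age or sex, and do not say that each library is a separate animal. The p-values therefore measure the spread between these libraries, which may be technical. In whole muscle, fewer cells of a type and less RNA per cell cannot be told apart.

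FOXO proteins are forkhead transcription factors that insulin and growth factor signalling, through the kinase AKT, keeps out of the nucleus. When that signal weakens, as in fasting, disuse or glucocorticoid excess, they enter the nucleus and switch on genes of protein breakdown. The best known of these in muscle are FBXO32 (atrogin-1), which brings substrates to a cullin ligase, and TRIM63 (MuRF1), a RING ligase of the sarcomere. DDIT4 (REDD1) and the sestrin SESN1 hold back mTORC1, the kinase complex that drives protein synthesis. GADD45A is a small stress-response protein that denervation and other stresses induce, and NEDD4 is a HECT-type ubiquitin ligase that rises in unloaded muscle.

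Libraries held 54961358 to 67285809 counts. Skeletal muscle fibre markers summed to 72913 to 92779 FPKM in Laiwu and 74922 to 100130 FPKM in Yorkshire, with none of the 11 listed in the table at 0. No 2 libraries were alike within counting noise, since the chi-square per degree of freedom of the closest pair, Yorkshire 1 and Yorkshire 4, was 30.2. The next closest pairs joined Laiwu 2 to Yorkshire 4 (30.4) and to Yorkshire 1 (35.8), so likeness between libraries crossed the breeds. Yorkshire 5 stood apart: across tested genes its deviation from the breed mean fell with gene length (Spearman's rho -0.42, against -0.15 to 0.24 in the other libraries). By count over FPKM, the members were from 1681 bases (GADD45A) to 8009 bases (NEDD4) long.

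None of the 9 genes differed between the breeds after adjustment over all tested genes. By the quasi-likelihood test of edgeR, adjusted by Benjamini and Hochberg's method, 0 of 9 were called higher and 0 of 9 lower in Laiwu, against 0% of all 11205 tested genes. At an unadjusted p under 0.05 stood 2 of the 9, SESN1 and FBXO32, against 4.44% of all tested genes, and both were above 0 in Laiwu minus Yorkshire, against 2.14% of all tested genes. Fitted differences were above 0 for 5 members and below 0 for 4, with a median of 0.01 on the log2 scale, where all tested genes had a median of -0.00. The breeds overlapped in all 9 genes, while 0.178% of tested genes had breeds that did not overlap. Spread within a breed exceeded that of over 97% of tested genes for 4 of them, GADD45A, TRIM63, DDIT4 and FBXO32. For FOXO4 and SESN1 it was below the median of tested genes.

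**Figure D1:**
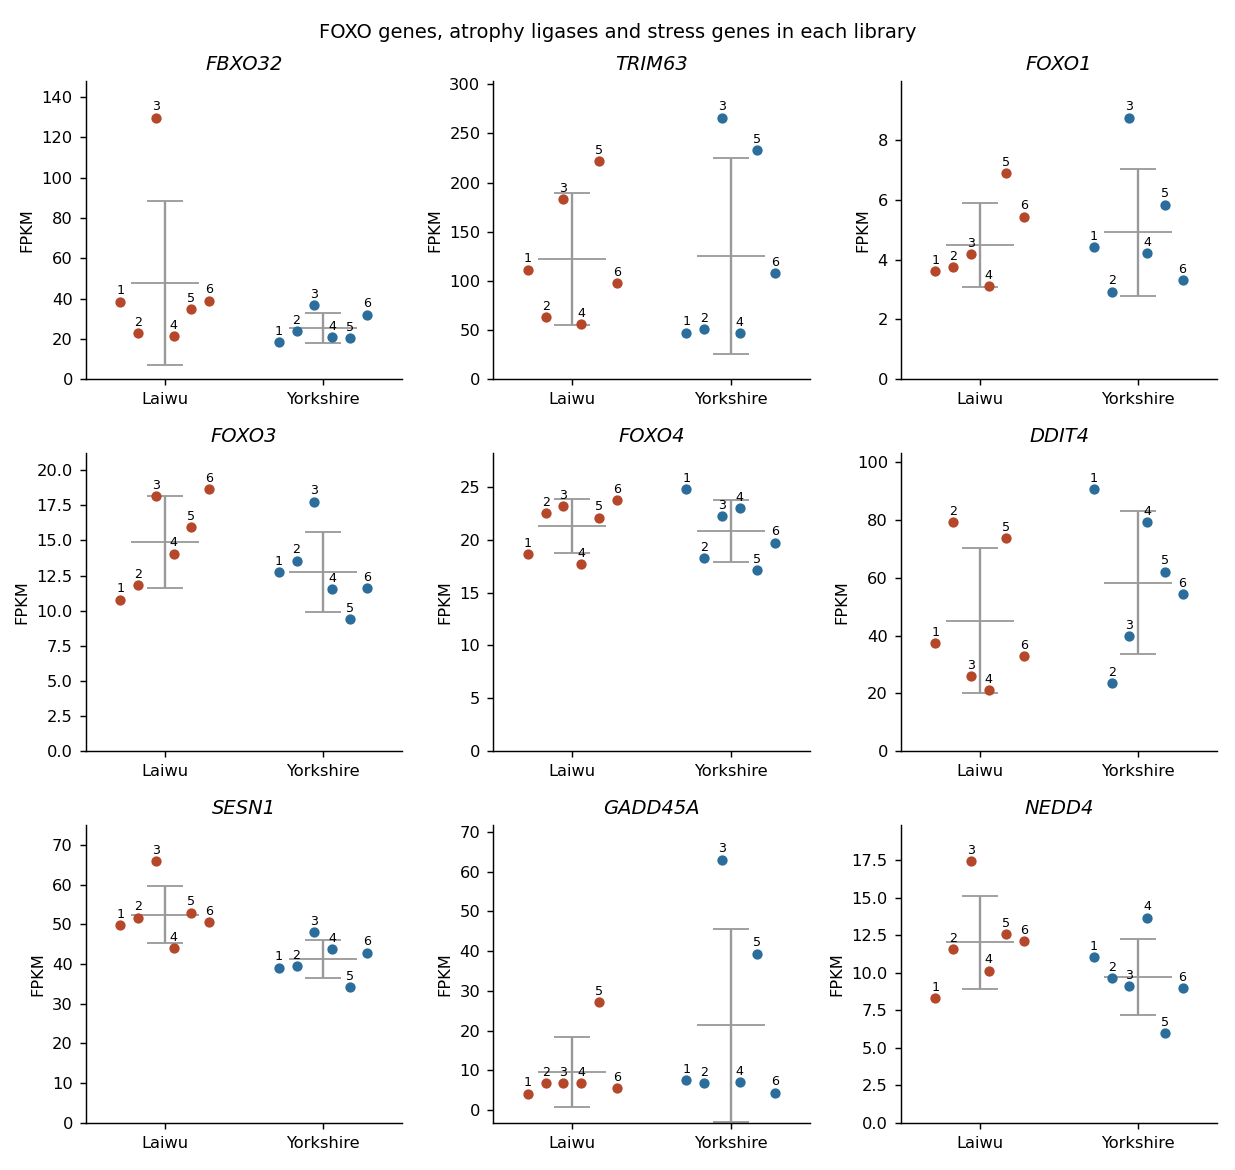
FPKM of the 9 genes in each library, Laiwu in red and Yorkshire in blue, with library numbers beside the points and grey bars for mean ± SD (n = 6 per breed). Laiwu 3 stands at 129.7 FPKM for FBXO32, and GADD45A is above 27 FPKM in Laiwu 5, Yorkshire 3 and Yorkshire 5 and below 8 FPKM in the other 9 libraries.

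TRIM63 was the most abundant of the 9 genes per length (ENSSSCG00000027684; Sscrofa11.1 chromosome 6, 83492633 to 83507502, minus strand). Its level ran from 55.99 through a median of 104.8 to 221.5 FPKM in Laiwu, and from 47.2 through 79.6 to 265.95 FPKM in Yorkshire. Yorkshire 3, Yorkshire 5, Laiwu 5 and Laiwu 3 were the 4 high libraries, and the breeds overlapped across nearly the whole range. Means were 122.3 ± 66.6 (Laiwu) and 125.5 ± 99.3 FPKM (Yorkshire) (SD, n = 6 each). The log2 fold change, Laiwu minus Yorkshire, was -0.05 ± 0.52 (SE), with a 95% interval of -1.17 to 1.08 and an edgeR adjusted p of 0.993. Its sign is not settled: it was 0.27 without Yorkshire 5, -0.30 without Laiwu 5 and 0.17 by limma on log2(FPKM + 1), and its interval is wide on both sides of 0.

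FBXO32 (ENSSSCG00000005981; chromosome 4, 15895689 to 15930931, plus strand) was lower and had a single extreme. Its values were 21.4 to 129.7 FPKM in Laiwu with a median of 36.7, and 18.4 to 36.7 FPKM in Yorkshire with a median of 22.4. Laiwu 3 alone lay above 40 FPKM, and the next library, Laiwu 6, was at 39.1 FPKM. The means of 47.7 ± 40.9 and 25.4 ± 7.28 FPKM (SD, n = 6 each) gave a log2 fold change of 0.87 ± 0.40 (SE), with a 95% interval of 0.02 to 1.73 and an edgeR adjusted p of 0.912. Without Laiwu 3 it was 0.30 (edgeR unadjusted p = 0.180, adjusted 0.995), and an exact permutation test of the mean log2(FPKM + 1) gave a two-sided p of 0.0996 over all 12 libraries. Laiwu 3 also had the highest summed level of adipocyte markers, 296.5 FPKM, against 106.0 to 283.0 FPKM elsewhere, and the part of fat cells in the FBXO32 value was not tested.

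The balance of the ligases differed widely between libraries. TRIM63 exceeded FBXO32 in FPKM in all 12, by a ratio of 1.41 in Laiwu 3, 6.34 in Laiwu 5, 7.25 in Yorkshire 3 and 11.4 in Yorkshire 5. In the other 8 libraries the ratio lay between 2.15 in Yorkshire 2 and 3.37 in Yorkshire 6. Of the libraries high in TRIM63, Laiwu 5, Yorkshire 3 and Yorkshire 5 had FBXO32 at 35.0, 36.7 and 20.5 FPKM. The libraries other than Laiwu 3 ran from 18.4 to 39.1 FPKM, and Yorkshire 3 was the highest of its breed.

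**Figure D2:**
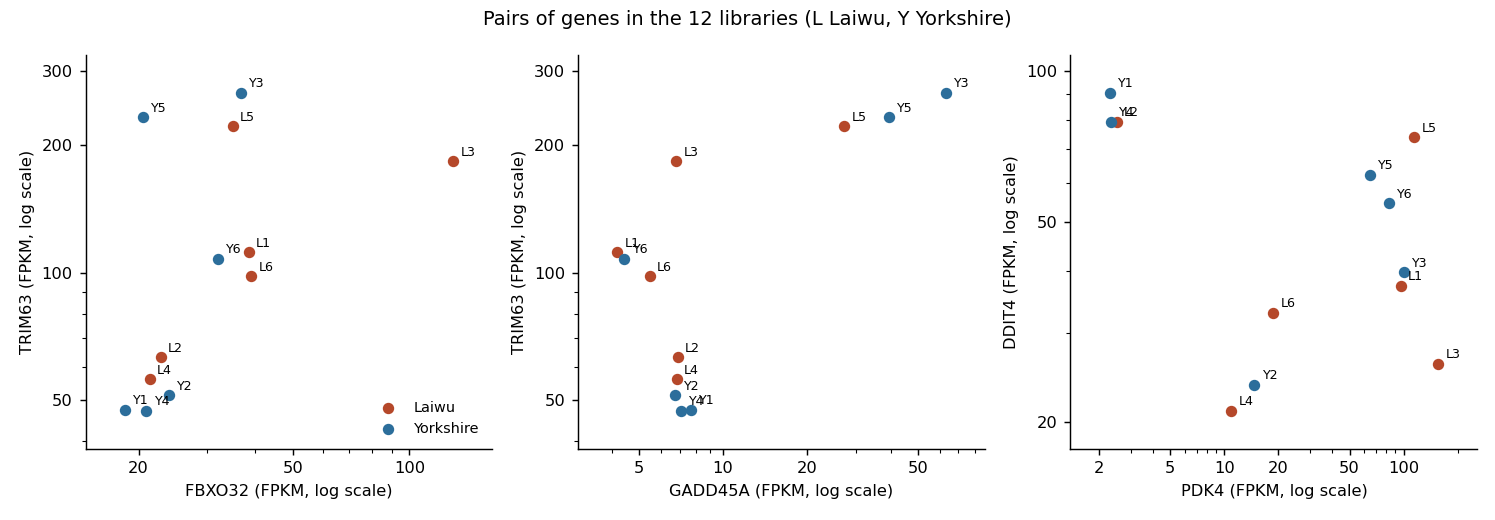
FPKM on log axes for TRIM63 against FBXO32, TRIM63 against GADD45A, and DDIT4 against PDK4; each point is 1 of the 12 libraries, labelled L (Laiwu) or Y (Yorkshire) with its number. TRIM63 and FBXO32 are both low in Laiwu 2, Laiwu 4, Yorkshire 1, Yorkshire 2 and Yorkshire 4, and TRIM63 is high with GADD45A in Laiwu 5, Yorkshire 3 and Yorkshire 5 but high without it in Laiwu 3.

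Among the transcription factors FOXO4 was the most abundant and FOXO1 the least of the 3 members in every library. Of the summed FPKM of FOXO1, FOXO3, FOXO4 and FOXO6, FOXO4 held 51.6% ± 4.08 in the Laiwu and 53.3% ± 5.18 in the Yorkshire libraries (SD, n = 6 each). FOXO3 held 35.7% ± 3.97 and 32.3% ± 4.11, FOXO1 10.7% ± 2.28 and 12.3% ± 4.15, and FOXO6 1.97% ± 1.21 and 2.09% ± 1.22. The FOXO1 share was highest in Yorkshire 3 (17.7%), Yorkshire 5 (17.3%) and Laiwu 5 (15.1%), the libraries with the most TRIM63 and GADD45A, and at most 10.99% in the other 9.

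FOXO1, the member most often tied to fasting and insulin loss in muscle (ENSSSCG00000009370; chromosome 11, 15317124 to 15410473, minus strand), was at 3.11 to 6.89 FPKM in Laiwu with a median of 3.98, and at 2.93 to 8.75 FPKM in Yorkshire with a median of 4.32. Yorkshire 3 was highest, then Laiwu 5 and Yorkshire 5, so high libraries occurred in both breeds. Its log2 fold change was -0.13 ± 0.24 (SE; 95% interval -0.64 to 0.39; edgeR adjusted p = 0.952), 0.06 without Yorkshire 3 and -0.29 without Laiwu 5. FOXO3, which also drives autophagy genes (ENSSSCG00000004387; chromosome 1, 74628218 to 74760325, plus strand), had medians of 15.0 FPKM in Laiwu (10.8 to 18.6) and 12.2 FPKM in Yorkshire (9.38 to 17.8). Its log2 fold change of 0.21 ± 0.14 (95% interval -0.10 to 0.52; edgeR adjusted p = 0.912) was 0.14 without Laiwu 6 and 0.28 without Yorkshire 3.

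FOXO4 (ENSSSCG00000012399; chromosome X, 57132548 to 57140356, plus strand) was the steadiest of the FOXO genes. It ran from 17.7 through a median of 22.3 to 23.8 FPKM in Laiwu and from 17.2 through 20.98 to 24.8 FPKM in Yorkshire, so that the highest library was only 1.44 times the lowest. The log2 fold change was 0.01 ± 0.10 (SE), with a 95% interval of -0.19 to 0.22, an edgeR adjusted p of 0.989 and values of -0.02 without Yorkshire 5 and 0.06 without Yorkshire 1. Its small variation ran alongside endothelial genes, though not these alone. Breed-centred FOXO4 had a Pearson r of 0.92 over 12 libraries with the summed level of the 9 endothelial markers in the table, which was 36.9 to 56.8 FPKM in Laiwu and 35.5 to 62.9 FPKM in Yorkshire. With the summed smooth muscle and pericyte markers the r was 0.81, and with the summed fibre markers -0.84. The fibre sum was led by ACTA1, at 34172 to 50061 FPKM in Laiwu and 35849 to 50541 FPKM in Yorkshire. Fibre markers did not all move together: Laiwu 1 and Laiwu 4 had the highest ACTA1 of their breed and the lowest MYH4, 4826 and 5129 FPKM. This r therefore does not describe fibre content as such. CDH5, the cadherin of vessel walls, was among its 3 closest genes. How far vessel content, or each library's relation to gene length (r of 0.62), enters the FOXO4 level was not tested.

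SESN1 had the smallest p of the 9 and the largest share of its variance between the breeds (ENSSSCG00000004390; chromosome 1, 75056734 to 75078863, minus strand). It ran from 44.0 through a median of 51.1 to 65.9 FPKM in Laiwu and from 34.1 through 41.2 to 47.95 FPKM in Yorkshire. Laiwu 4, at 44.0 FPKM, lay below Yorkshire 3, at 47.95 FPKM, and every other Laiwu library lay above every Yorkshire one. Means were 52.5 ± 7.26 and 41.2 ± 4.74 FPKM (SD, n = 6 each). The fitted log2 difference was 0.33 ± 0.10 (SE; 95% interval 0.12 to 0.54). edgeR's unadjusted p was 0.00441 and its adjusted p 0.912. With 1 library left out the fold change stayed between 0.26, without Laiwu 3, and 0.37, without Laiwu 4. Breed accounted for 52.5% of the variance of SESN1 on the log2(FPKM + 1) scale, for 0.86% to 19.7% in the other 8 members, and for a median of 5.19% over tested genes. The lowest value was in Yorkshire 5, as were those of FOXO3, FOXO4 and NEDD4. Without Laiwu 3 and Yorkshire 5 together, the SESN1 fold change was 0.23 (edgeR unadjusted p = 0.0133). SESN1 had a Pearson r of -0.83 over 12 libraries with the summed fibre markers. That sum was led by ACTA1 and does not stand for all fibre markers. In Laiwu 3, highest in SESN1, ACTA1 was the lowest of its breed at 34172 FPKM, but MYH4 was at 9204 FPKM. The part of fibre content in the breed difference was not tested.

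DDIT4 (ENSSSCG00000031888; chromosome 14, 75117710 to 75119902, plus strand) ran from 21.0 through a median of 35.2 to 79.3 FPKM in Laiwu and from 23.7 through 58.4 to 90.7 FPKM in Yorkshire. Yorkshire 1, Yorkshire 4 and Laiwu 2 were highest and Laiwu 4, Yorkshire 2 and Laiwu 3 lowest, a pattern that crossed the breeds. The log2 fold change was -0.39 ± 0.38 (SE; 95% interval -1.22 to 0.45; edgeR adjusted p = 0.918), -0.23 without Yorkshire 1 and -0.63 without Laiwu 2. The libraries with most DDIT4 had the least PDK4, a kinase gene that fasting and FOXO1 switch on to spare glucose. PDK4 was at 2.30, 2.33 and 2.51 FPKM in Yorkshire 1, Yorkshire 4 and Laiwu 2, and at 10.9 to 155.7 FPKM in the other 9 libraries. Those 3 libraries, which were also the closest to one another by chi-square, had a DDIT4 to PDK4 ratio of 31.7 to 39.4. The other 9 had one of 0.167 to 1.93. Within those 9, high DDIT4 also occurred with high PDK4, as in Laiwu 5 at 73.9 and 115.0 FPKM. The log2 fold change of PDK4 was 0.56 ± 1.07 (edgeR adjusted p = 0.955), 0.14 without Laiwu 3 and 0.89 without Yorkshire 3.

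GADD45A (ENSSSCG00000037066; chromosome 6, 144940697 to 144944089, minus strand) was the most variable member. Yorkshire 3, Yorkshire 5 and Laiwu 5 held 62.97, 39.4 and 27.3 FPKM, while the other 9 libraries held 4.18 to 7.65 FPKM. The gene was thus high in libraries of both breeds, with nothing between the groups of values. Means of 9.56 ± 8.74 (Laiwu) and 21.4 ± 24.3 FPKM (Yorkshire) (SD, n = 6 each) gave a log2 fold change of -1.14 ± 0.72 (SE; 95% interval -2.70 to 0.43; edgeR adjusted p = 0.912). It was -1.80 without Laiwu 5 and -0.53 without Yorkshire 3. Its relative GADD45G, a gene of the same stress family, was also highest in Yorkshire 5 (69.6 FPKM), Yorkshire 3 (56.1 FPKM) and Laiwu 5 (40.8 FPKM), with 16.8 to 35.95 FPKM in the others. GADD45B was highest in Yorkshire 5 and Laiwu 5 as well, at 12.5 and 10.9 FPKM, but Laiwu 6 at 9.44 FPKM exceeded Yorkshire 3 at 9.36 FPKM.

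NEDD4 (ENSSSCG00000037499; chromosome 1, 115941940 to 116070305, plus strand) ran from 8.29 through a median of 11.8 to 17.4 FPKM in Laiwu and from 5.98 through 9.36 to 13.7 FPKM in Yorkshire. Laiwu 3 was highest and Yorkshire 5 lowest. The log2 fold change of 0.28 ± 0.18 (SE; 95% interval -0.10 to 0.66; edgeR adjusted p = 0.912) was 0.16 without Laiwu 3 and 0.06 without Laiwu 3 and Yorkshire 5 together. NEDD4 is the longest member, and its breed-centred level had a Pearson r of 0.83 over 12 libraries with each library's own relation to gene length. The r was 0.62 for FOXO4, 0.53 for SESN1, 0.47 for FOXO3 and -0.49 for TRIM63, and -0.35 to 0.10 for the remaining members. What this relation contributes to these levels was not tested.

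**Figure D3:**
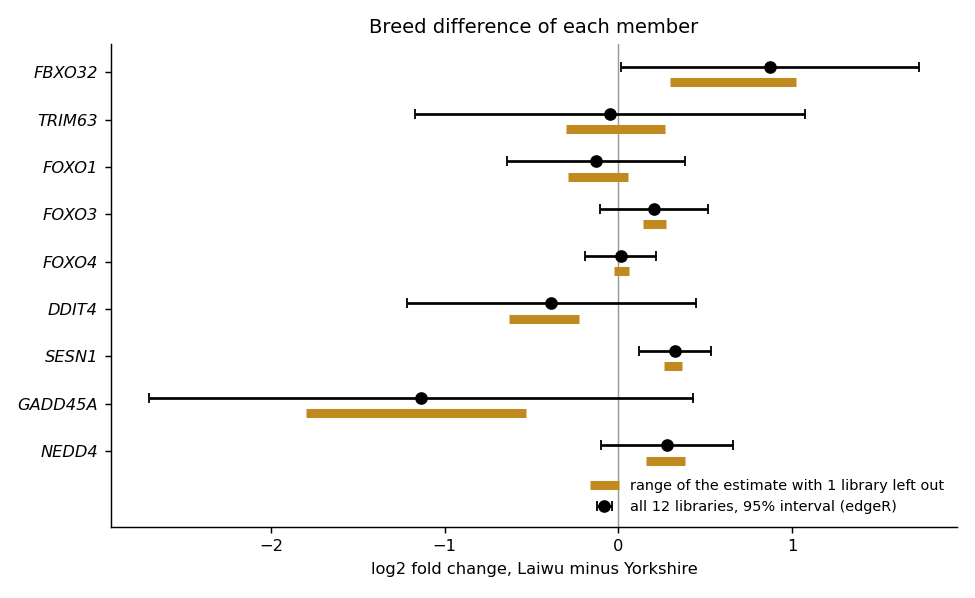
Fitted log2 fold change, Laiwu minus Yorkshire, of each gene with its 95% interval by edgeR (black) and the range of the estimate when each of the 12 libraries was left out in turn (ochre bar). The intervals of SESN1 and FBXO32 exclude 0 before adjustment over all genes, and the FBXO32 estimate drops to 0.30 without Laiwu 3.

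In order of mean FPKM over the 12 libraries the members ranked TRIM63 (123.9), DDIT4 (51.7), SESN1 (46.8), FBXO32 (36.6), FOXO4 (21.1), GADD45A (15.5), FOXO3 (13.8), NEDD4 (10.9) and FOXO1 (4.71). The ranges of neighbours in this order overlapped in each case. Within libraries NEDD4 exceeded FOXO1 in 12 of 12, SESN1 exceeded FBXO32 in 11 and FOXO3 exceeded NEDD4 in 11. By contrast DDIT4 exceeded SESN1 in only 6, and GADD45A exceeded FOXO3 in only 3, so those neighbours have no settled order.

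Spread within breeds divided the 9 genes. The SD of log2(FPKM + 1) about the breed means was 1.21 for GADD45A, 0.99 for TRIM63, 0.73 for DDIT4 and 0.70 for FBXO32, each above that of 97.8% to 99.7% of tested genes. Among the genes within 2-fold of the same mean level, these 4 exceeded 96.4% to 99.3%. FOXO1 (0.42), NEDD4 (0.34) and FOXO3 (0.29) also lay above the median of 0.21 over tested genes. FOXO4 and SESN1, each at 0.18, lay below it. Of the 3 FOXO genes FOXO1 varied most, and both ligases varied more than any of the 3.

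**Figure D4:**
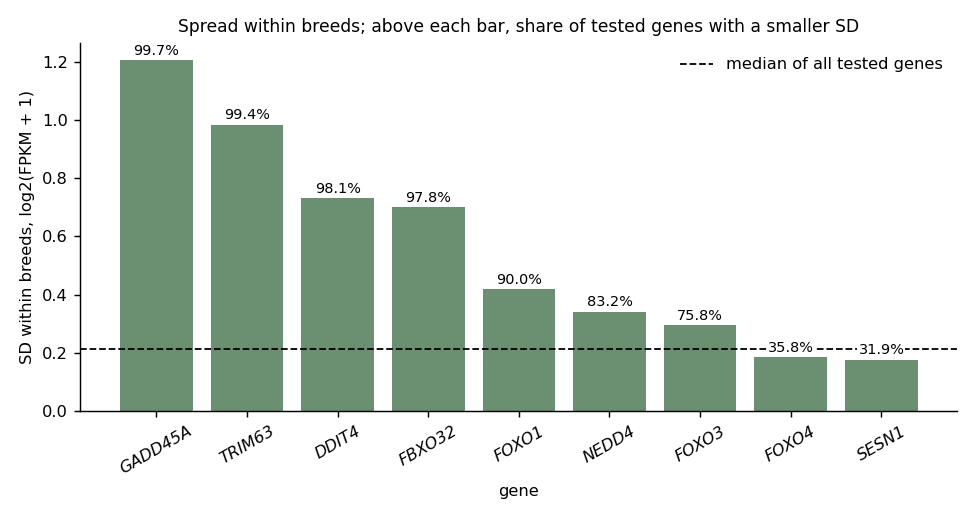
SD of log2(FPKM + 1) within breeds for each gene (bars), with the median of all tested genes as a dashed line and the share of tested genes with a smaller SD above each bar. GADD45A, TRIM63, DDIT4 and FBXO32 lie above 97% of tested genes, and FOXO4 and SESN1 lie below the median.

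Members were then compared pair by pair after centring each gene within its breed. Of 36 pairs, 0 passed an exact permutation test within breeds at an adjusted p under 0.05 (Benjamini-Hochberg over the 36), and 8 had an unadjusted p under 0.05. Since GADD45A falls into separate groups of values, its 8 pairs have no pooled r here. In the 9 libraries where it was low, it had an r of 0.13 with FOXO1 (exact permutation p = 0.745) and -0.55 with TRIM63 (exact permutation p = 0.138).

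Of the remaining 28 pairs, 21 had an r above 0, and all 6 with an unadjusted p under 0.05 were positive. The same counts were not made over pairs of all tested genes, so these cannot be called particular to the members. In these 6 pairs the partner ranked from 55 (SESN1 by r with FBXO32) to 2367 (FBXO32 by r with TRIM63) among tested genes. FOXO1 ranked 805 by r with TRIM63. The closest was FBXO32 with SESN1, at a Pearson r of 0.81 and Spearman's rho of 0.66 over 12 libraries (exact permutation p = 0.00443 and 0.0371, adjusted 0.0764 and 0.434). It was 0.90 within Laiwu and 0.70 within Yorkshire, and 0.61 (exact permutation p = 0.0730) without Laiwu 3 and Yorkshire 1, the libraries farthest from the FBXO32 median. TRIM63 and FOXO1, a ligase and the factor known to act on its promoter, had an r of 0.74 and a rho of 0.63 (exact permutation p = 0.0115 and 0.0482, adjusted 0.104 and 0.434). Within Laiwu it was 0.71 and within Yorkshire 0.76. Without Yorkshire 3 and Yorkshire 5 it was 0.47 (exact permutation p = 0.229). The r of FBXO32 with FOXO1 was 0.20 and with FOXO3 0.53 (exact permutation p = 0.516 and 0.0887, adjusted 0.688 and 0.290).

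The ligases FBXO32 and TRIM63 had an r of 0.54 and a rho of 0.57 with each other (exact permutation p = 0.0344 and 0.0777, adjusted 0.177 and 0.466). It was 0.69 within Laiwu, 0.56 within Yorkshire and 0.54 without Laiwu 3 and Yorkshire 1 (exact permutation p = 0.123). FOXO4 and NEDD4 had an r of 0.75 and a rho of 0.71 (exact permutation p = 0.00637 and 0.0202, adjusted 0.0764 and 0.434), and 0.65 without Laiwu 4 and Yorkshire 5 (exact permutation p = 0.0572). Their values within the breeds were 0.74 and 0.77. NEDD4, too, ran alongside the endothelial markers, with an r of 0.78. SESN1 had an r of 0.70 with NEDD4, which was 0.12 without Laiwu 3 and Yorkshire 5 (exact permutation p = 0.0204 and 0.764), and of 0.61 with FOXO4, which was 0.26 without Laiwu 4 and Yorkshire 5 (exact permutation p = 0.0479 and 0.455). With 1 library left out, the r of SESN1 with NEDD4 ran from 0.54 to 0.80, and that with FOXO4 from 0.48 to 0.76. Without Laiwu 3 and Yorkshire 5 the r of SESN1 with FOXO4 was 0.44 (exact permutation p = 0.242). Both thus varied with the libraries left out. DDIT4 had an r of 0.46 with FOXO4, 0.28 with FOXO1, 0.10 with NEDD4, -0.01 with TRIM63, -0.03 with SESN1, -0.35 with FBXO32 and -0.37 with FOXO3 (exact permutation p of 0.147 or more, adjusted 0.40 or more). The value for FBXO32 depended on which libraries were left out. It was -0.80 without Laiwu 4 and Yorkshire 2, the farthest from the DDIT4 median (exact permutation p = 0.000278, adjusted 0.010), and -0.09 without Laiwu 3 and Yorkshire 1, the farthest from the FBXO32 median (exact permutation p = 0.818). With 1 library left out it ran from -0.63, without Laiwu 4, to -0.21, without Laiwu 3.

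**Figure D5:**
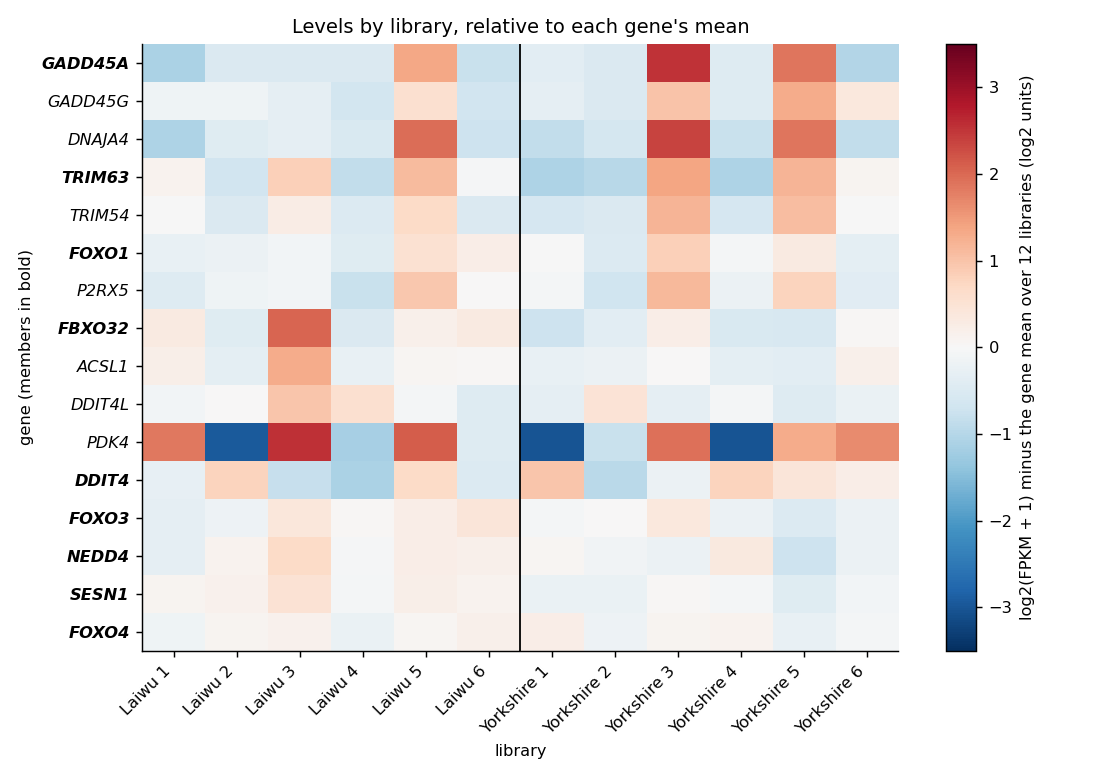
log2(FPKM + 1) minus each gene's mean over the 12 libraries, red above and blue below, for the members (bold) and other genes named in the text. GADD45A, GADD45G, DNAJA4, TRIM63, TRIM54, FOXO1 and P2RX5 are red in Laiwu 5, Yorkshire 3 and Yorkshire 5, FBXO32 and ACSL1 are darkest red in Laiwu 3, and PDK4 is darkest blue in Laiwu 2, Yorkshire 1 and Yorkshire 4.

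The genes most like each member over the 12 libraries differed between the ligases. Likeness was the Pearson r of breed-centred log2(FPKM + 1) among the 4652 genes whose mean reached 5 FPKM, given here as a description. FBXO32 was closest to ACSL1, an acyl-CoA synthetase, at 0.97, to ETFDH, which passes electrons from fatty acid oxidation to the respiratory chain, at 0.92, and to the adiponectin receptor gene ADIPOR2 at 0.90. Without Laiwu 3 these were 0.91, 0.73 and 0.68. ACSL1 stood at 72.8 FPKM in Laiwu 3 and at 22.3 to 33.4 FPKM in the other 11 libraries.

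TRIM63 was closest to the p38 pathway kinase gene MAP2K3 (0.97), to TRIM54 (0.97), a RING ligase of the same family and sarcomere site, and to PLEKHF1 (0.97). TRIM54 was at 81.97 FPKM in Yorkshire 3, 76.3 FPKM in Yorkshire 5 and 56.3 FPKM in Laiwu 5, and at 23.2 to 42.8 FPKM in the others. TRIM63 and TRIM54 are paralogs, and how the counting treated reads common to both is not known here. FOXO1 was closest to P2RX5, an ATP-gated channel gene, at 0.96, to LETM1 at 0.96 and to GANAB at 0.96. P2RX5 reached 72.5, 62.3 and 55.4 FPKM in Yorkshire 3, Laiwu 5 and Yorkshire 5, and was at most 32.3 FPKM elsewhere.

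GADD45A was closest to TCP1, a chaperonin subunit gene, to the co-chaperone gene DNAJA4 and to APLP2. DNAJA4 was at 56.6 FPKM in Yorkshire 3, 42.5 FPKM in Laiwu 5 and 39.7 FPKM in Yorkshire 5, against 4.26 to 8.00 FPKM in the other 9 libraries. In those 9 alone the r with GADD45A was 0.87 for TCP1, 0.71 for DNAJA4 and 0.45 for APLP2. Satellite cell markers summed to 91.0, 107.0 and 98.3 FPKM in Laiwu 5, Yorkshire 3 and Yorkshire 5 and to 64.2 to 86.3 FPKM in the others. Most of this sum was ITGA7 and CDH15, at 67.5 and 27.1 of the 107.0 FPKM in Yorkshire 3. Together, the other listed markers were within their range elsewhere in Laiwu 5 and Yorkshire 5, and above it in Yorkshire 3. The part of satellite cells in GADD45A was not tested.

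DDIT4 was closest to PCBP4 (0.91), to the pyruvate kinase gene PKM (0.88) and to ENSSSCG00000063044 (0.85). PKM, of glycolysis, was at 1144 FPKM in Yorkshire 1, 1113 FPKM in Yorkshire 4 and 1040 FPKM in Laiwu 2, the libraries highest in DDIT4, and at 738.2 to 984.2 FPKM elsewhere. The summed fibro-adipogenic progenitor markers had an r of -0.77 with DDIT4. SESN1 was closest to MAP4 (0.95), NEK9 (0.93) and CIAO1 (0.93), and FOXO3 to ANKLE2 (0.93), SMARCC2 (0.92) and EIF4B (0.90). Genes like NEDD4 included WWP1 (0.92), a HECT ligase like itself, and NNT (0.91). FOXO4 was closest to CEBPZOS (0.97), CDH5 (0.96) and KIF1C (0.95).

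Relatives of the members were lower or more even, with 0 of 7 past the edgeR test in either direction. DDIT4L, a muscle-rich relative of DDIT4, was at 145.6 ± 56.4 (Laiwu) and 113.6 ± 29.6 FPKM (Yorkshire) (SD, n = 6 each), above DDIT4 itself. It was highest in Laiwu 3, at 241.6 FPKM, where DDIT4 was among its 3 lowest. SESN2, a sestrin of the same family as SESN1, ran from 0.448 to 1.41 FPKM in Laiwu and from 0.801 to 2.63 FPKM in Yorkshire, and SESN3 from 0.768 to 1.16 and from 0.536 to 1.17 FPKM. Both lay far below SESN1. FOXO6 ran from 0.263 to 1.67 FPKM in Laiwu and from 0.454 to 1.33 FPKM in Yorkshire, and NEDD4L was at 7.51 ± 2.31 and 7.45 ± 1.89 FPKM.

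Inputs to FOXO did not pass the test either. Of the insulin and AKT list 0 of 15 tested genes were called, 11 had a fitted difference above 0 and the median was 0.12. IRS1, the insulin receptor substrate, was at 36.5 ± 5.96 (Laiwu) and 35.7 ± 13.0 FPKM (Yorkshire) (SD, n = 6 each). Its lowest values were 18.7 FPKM in Yorkshire 5, 20.2 FPKM in Yorkshire 3 and 29.3 FPKM in Laiwu 5, the libraries highest in TRIM63 and GADD45A. AKT2, the main AKT of insulin-responsive muscle, was at 27.0 ± 4.70 and 26.5 ± 4.13 FPKM. Cofactors and modifiers of FOXO had 0 of 17 called, 10 above 0 and a median of 0.02. BCL6, a transcriptional repressor of that list, ran from 25.3 to 69.2 FPKM in Laiwu and from 26.7 to 96.7 FPKM in Yorkshire, highest in Yorkshire 3. STUB1, a chaperone-linked ligase, was at 46.2 ± 4.89 and 54.3 ± 12.3 FPKM.

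Downstream, 0 of 31 other reported FOXO targets in muscle were called. Of these 26 had a fitted difference above 0, with a median of 0.15, against 5573 of 11205 and -0.00 over all tested genes. That median was 0.06 to 0.17 over the alternatives. The adipocyte markers had a median of 0.98, with 10 of 11 above 0 and 0 called. Of these 11, 8 had an edgeR unadjusted p under 0.05, against 4.44% of all tested genes. The part of fat cells in the values of the target list was not tested. TXNIP, a target that curbs glucose uptake, was at 265.2 ± 77.7 (Laiwu) and 213.0 ± 80.3 FPKM (Yorkshire), and the mitophagy kinase gene PINK1 at 102.8 ± 13.5 and 98.4 ± 7.40 FPKM (SD, n = 6 each).

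Other muscle ubiquitin ligases had 0 of 24 called, 16 above 0 and a median of 0.08. ASB2 and FBXO40, the most abundant, were at 266.2 ± 51.6 and 154.1 ± 36.6 FPKM in Laiwu muscle, against 268.2 ± 39.2 and 116.0 ± 29.6 FPKM in Yorkshire muscle, each above FBXO32 in mean level. FBXO40, a muscle ligase that targets IRS1, was lowest in Yorkshire 5 and Yorkshire 3, at 83.6 and 85.1 FPKM. The cullin core and ubiquitin supply had 0 of 18 called and a median of -0.00. UBB, a polyubiquitin gene, was highest in Yorkshire 5 (784.0 FPKM), Yorkshire 3 (746.5 FPKM), Laiwu 3 (709.7 FPKM) and Laiwu 5 (631.8 FPKM), the 4 libraries highest in TRIM63. ZFAND5, a proteasome-binding gene of atrophy, was highest in Laiwu 3 at 320.9 FPKM. Substrates of the ligases had 0 of 16 called and a median of -0.10, and CKM, the muscle creatine kinase, was at 9120 ± 926.9 and 9506 ± 901.0 FPKM.

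The mTORC1 branch, on which DDIT4 and SESN1 act, had 0 of 22 called, 13 above 0 and a median of 0.02. EIF4EBP2 was at 54.6 ± 8.26 and 52.0 ± 9.84 FPKM and RRAGA at 31.4 ± 4.42 and 30.6 ± 3.53 FPKM (SD, n = 6 each). Stress lists that bear on GADD45A, SESN1 and DDIT4 had no call either. These were p53 targets (0 of 15, median 0.06), the ATF4 response (0 of 16, median -0.13), glucocorticoid response genes (0 of 14, median 0.10), the denervation response (0 of 14, median -0.32, and -0.46 to 0.08 over the alternatives) and the hypoxia response (0 of 16, median -0.05). Leaving out 1 library moved the first 3 medians to or past 0: the p53 targets were at -0.01 without Laiwu 5, the glucocorticoid genes at -0.02 without Laiwu 5 and the ATF4 response at -0.00 without Yorkshire 1. Over all alternatives these 3 medians ran from -0.01 to 0.14, from -0.02 to 0.18 and from -0.24 to -0.00. CCNG1, a p53 target, was highest in Laiwu 5 (634.0 FPKM), Yorkshire 3 (616.3 FPKM) and Yorkshire 5 (563.7 FPKM), as GADD45A was, with 405.3 to 526.0 FPKM in the others. CDKN1A, the next most abundant p53 target, did not share this pattern. It was highest in Laiwu 2 (64.4 FPKM), then in Yorkshire 3 (53.9 FPKM) and Laiwu 5 (50.1 FPKM). Yorkshire 5, at 41.3 FPKM, lay below Laiwu 1, at 47.0 FPKM. ATF4 itself was highest in Yorkshire 5 and Yorkshire 3, at 2517 and 2318 FPKM. ATF3 was at 6.85, 8.21 and 15.4 FPKM in Yorkshire 1, Yorkshire 4 and Laiwu 2, the libraries lowest in PDK4, and at 27.6 to 79.3 FPKM elsewhere.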

How the data were processed

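Poly(A) RNA of 12 libraries was sequenced. Per the series' design text, reads were checked with FastQC and aligned with HISAT2 2.2.1 to Sus scrofa 11.1, and further tools with no stated role (StringTie 1.3.4d, cutadapt 1.9, edgeR, DESeq2) come from the submitters' processing notes. The deposited table holds raw counts and FPKM values per gene, per the file headers, and FPKM matched count over length and total within 1% for 97.8% to 99.8% of genes with enough counts in a library. The dUTP kit marks strand, but the sources used here state neither the strand setting of the counting nor the annotation release. No other gene of the table overlaps a member. Coordinates are the table's.

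Genes whose mean reached 0.5 FPKM were fitted with edgeR 4.0.16 (quasi-likelihood, TMM, robust), Laiwu minus Yorkshire, adjusted over all 11205. Alternatives used limma 3.58.1, DESeq2 1.42.0 and R 4.3.3, with Python 3.11.15 for the rest. The edgeR script was tested on simulated data. Pairs used breed-centred log2(FPKM + 1) and all permutations within breeds. No sample's column was left unused. The members and lists were chosen with earlier results of these data known. Named genes are the members, their relatives, PDK4, the 2 most abundant genes of each list and the 3 genes most like each member, of which 1 is not reported here. Of the genes the rule names, those of the cell marker lists are not described, other than CKM, CDH5, ACTA1, MYH4, ITGA7 and CDH15. The genes DUSP1, PER1, SLN, MYH8, BNIP3 and EGLN1 are not described either. The rule that a gene falls into separate groups of values, a gap over 40% of its range, was set after the data were seen.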

Additional observations from a re-analysis of the deposited data

Results flagged for a closer look

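A library that stood far from the other 5 of its breed was found 4 times among 34 sets of 6 values. Chance marks about 1 in 20 where values are normally distributed and sets independent. FPKM values need not be so, and 2 of the 4 came from related genes in 1 library, so that rate does not apply here. FBXO32 was at 129.7 FPKM in Laiwu 3, with the next Laiwu value at 39.1 FPKM. GADD45A was at 27.3 FPKM in Laiwu 5, with the next at 6.87 FPKM, and GADD45G was at 40.8 FPKM in the same library, with the next at 24.8 FPKM. DDIT4L was at 171.1 FPKM in Yorkshire 2, with the next Yorkshire value at 117.6 FPKM.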

How the results depend on the processing

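No member was called under any of its 22 alternatives (21 for FOXO1), and no pair of members under 16 of 17 alternatives run on all 36 pairs. The exception, chosen after seeing the data, left out the 2 libraries farthest from the median of a pair's second gene and called 1 pair, FBXO32 with DDIT4 (r = -0.80). Over all tested genes DESeq2 called 1 (CILP) and edgeR 0, with 569 and 498 at an unadjusted p under 0.05. That number was 284 without Laiwu 3, 293 without Yorkshire 5 and 176 without both, an alternative chosen after seeing the data. FBXO32, FOXO3, DDIT4, SESN1, GADD45A, NEDD4 and PDK4 kept their sign throughout. TRIM63 changed sign in 10 alternatives: 0.17 by limma at a pseudocount of 1, 0.17 at 0.1, 0.17 as the difference of means in the exact permutation test, 0.14 with the replicate block, 0.13 without Laiwu 3 and Yorkshire 5, and from -0.30 to 0.27 with 1 library left out. FOXO1 ran from -0.287 to 0.0570 and FOXO4 from -0.0233 to 0.0610 with 1 library left out, and FOXO4 was -0.0362 without Laiwu 3 and Yorkshire 5. In the 9 libraries of low GADD45A, chosen on that gene's own values, its r with TRIM63 was -0.55 (exact permutation p = 0.138). The cause of these changes was not tested. Equal replicate numbers do not pair the libraries (r of -0.22 to 0.38, over 0.1 in 3 of 6, with 1 Laiwu and 1 Yorkshire library closest to its own number). With the replicate block no gene passed (433 had an unadjusted p under 0.05), and the fit gave 0.62 for FBXO32 and -0.68 for GADD45A. Each library held at least 54961358 counts.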
